A study of Mus musculus with 16 samples.

Results

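The laminin, nidogen and perlecan genes encode the non-collagen core of basement membranes, and 10 of them were followed in the mouse stomach corpus. They were Lama2, Lama3, Lama4, Lama5, Lamb1, Lamb2, Lamc1, Nid1, Nid2 and Hspg2. The members were taken by symbol from a table of 24964 gene symbols. All 10 had a row, and all 10 were among the 15385 genes that passed the filter on low counts. Nid1 was picked for its higher level in the group TTP-S than in the group WT-S, and the other 9 were listed with it by function. That comparison is therefore described here without a test.

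RNA was sequenced in 16 libraries, 4 in each of 4 groups. All mice were females aged 8 weeks. Each library came from a 4 mm biopsy of the corpus at the lesser curvature. The study's title concerns tristetraprolin (TTP), inflammation and metaplasia in the stomach, so the groups cross genotype with treatment. WT-S and WT-A were wild-type C57BL/6 mice. TTP-S and TTP-A were congenic C57BL/6 mice with the TTPΔARE allele, in which the AU-rich element is missing from the transcript of Zfp36, the gene for TTP. The A groups had their adrenal glands removed, which the labels name as the inducer of gastric inflammation. For the S groups the treatment label names spasmolytic polypeptide-expressing metaplasia (SPEM), and whether these mice had an operation is not stated. The labels do not say which libraries came from separate animals, so the p-values measure the spread between these libraries, which may be technical. The labels name no promoter or Cre driver for the allele.

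Laminins are trimers of an alpha, a beta and a gamma chain that polymerise beneath epithelia and around muscle, vessels and nerves. Nidogens bind the gamma chain of laminin and bridge the laminin network to the collagen IV network, and perlecan, a heparan sulfate proteoglycan, anchors to both. TTP binds AU-rich elements in the 3′ untranslated regions (UTRs) of transcripts and promotes their decay, and its core binding sequence is UAUUUAU. Adrenalectomy removes the source of glucocorticoids, whose receptor binds DNA at AGAACA sites.

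Because TTP binds AU-rich elements, the 3′ UTRs of the members were searched on the sense strand for TATTTAT, the DNA form of the core sequence, in the longest coding transcript of GENCODE M21 (GRCm38). It occurred once in each of 3 members and in none of the other 7, Nid1 included. The 3 stretches are shown 5′ to 3′ with the core in capitals.
Lama5: cagatattaTATTTATactttgttc
Lamc1: acagtatttTATTTATaataaaatc
Nid2: ctcagacttTATTTATactaaggtg
The Lama5 stretch lay at chr2:180176427-180176451 on the minus strand, with the core at base 105 of a UTR of 174 bases. In Lamc1 the stretch was at chr1:153218942-153218966 on the minus strand, with the core at base 2516 of 2551. The Nid2 stretch was at chr14:19811642-19811666 on the plus strand, with the core at base 455 of 591. The core was also present in 29.5% of the 14446 tested genes with a 3′ UTR. Among genes whose UTR length was within 10% of the member's, the share was 6.47% for Lama5, 44.1% for Lamc1 and 16.5% for Nid2. Nid1 has a UTR of 2202 bases without the core, and 40.8% of UTRs of similar length held it. These matches describe the letters only.

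The start-site regions of Lama5 and Nid1 are shown because Lama5 was the member that differed after adrenalectomy in the wild type and Nid1 the member that was picked on genotype. RefSeq sequences (GRCm38.p6, 250 bases before to 50 after the start) were found for 6 of the 10 members, namely Lama2, Lama5, Lamb1, Lamb2, Nid1 and Hspg2. Capitals mark GC boxes, GGGCGG or its reverse complement CCGCCC.
Lama5: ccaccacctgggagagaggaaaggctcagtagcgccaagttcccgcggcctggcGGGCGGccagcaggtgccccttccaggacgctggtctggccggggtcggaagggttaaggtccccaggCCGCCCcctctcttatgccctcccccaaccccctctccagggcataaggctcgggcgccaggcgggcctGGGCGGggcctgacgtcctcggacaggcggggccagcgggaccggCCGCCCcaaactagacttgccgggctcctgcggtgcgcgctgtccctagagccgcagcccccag
Nid1: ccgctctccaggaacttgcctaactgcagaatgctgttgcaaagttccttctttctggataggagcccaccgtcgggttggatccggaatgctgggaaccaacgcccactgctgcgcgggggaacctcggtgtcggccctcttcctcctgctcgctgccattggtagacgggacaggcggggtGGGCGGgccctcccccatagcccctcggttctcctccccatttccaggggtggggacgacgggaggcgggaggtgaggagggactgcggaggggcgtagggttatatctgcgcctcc
The Lama5 region was chr2:180225810-180226109 on the minus strand, had a GC content of 72.7% and held 4 GC boxes. The Nid1 region was chr13:13437352-13437651 on the plus strand, had a GC content of 64.7% and held 1 GC box. The median GC content of the 21811 promoters of the same length was 56.3%, and 46.3% of them held a GC box on either strand. The glucocorticoid receptor sequence AGAACA, or TGTTCT on the other strand, was in neither of these windows. It occurred once in the Lama2 window and in 16.5% of all promoters. The motifs do not overlap each other, and no match says only that these letters are not in the window.

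Total counts ranged from 17453930 to 25849472 per library. Zfp36 was at 55.1 to 88.6 CPM, a gene's reads relative to the scaled library total, in the 8 WT libraries and at 110 to 131 CPM in the 8 TTPΔARE libraries. The 2 ranges did not overlap, and the genotype labels fit every library. All 7 corpus epithelial markers, among them the proton pump gene Atp4a and the chief cell gene Pgc, were detected in every library, with sums of 86211 to 206218 CPM. Squamous epithelial markers summed to 3.69 to 732 CPM. WT-A 3 and WT-A 4 stood apart: their deviations from the gene medians followed transcript GC content with a Spearman rho of 0.73 and 0.76 over 11493 genes, against -0.31 to 0.17 in the other 14 libraries. Comparisons that use WT-A were therefore also fitted without these 2 libraries.

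Per kilobase of the longest coding transcript, the members fell into 3 tiers over the 16 libraries. Lamc1, the common gamma chain, averaged 23.1 ± 2.61 CPM per kb (SD, n = 16 libraries here and in this paragraph). Perlecan (Hspg2) followed at 22.4 ± 2.76, Lamb1 at 20.5 ± 2.69, Nid1 at 19.1 ± 2.08 and Lamb2 at 17.5 ± 1.13 CPM per kb. Neighbours in this top tier differed by less than their SDs, except that Nid1 and Lamb2 differed by more than the SD of Lamb2. The second tier held Lama5 at 9.19 ± 1.68 and Lama4 at 8.37 ± 0.863 CPM per kb, again within their SDs of each other. Nid2 at 3.79 ± 0.555, Lama2 at 3.20 ± 0.658 and Lama3 at 2.29 ± 0.350 CPM per kb formed the lowest. Dividing by the merged length of all annotated exons instead put Lamb1 at 11.96 CPM per kb and Lama4 at 4.19, near Nid2 at 3.57, with Lama3 at 2.24 above Lama2 at 1.89. Both the tiers and the order within them therefore depend on the transcript model.

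In every group the summed alpha chains were scarcer per kilobase than the summed beta chains. With Lama1 and Lamb3 counted as well, group means were 21.1 to 25.3 CPM per kb for alpha and 60.4 to 67.6 for beta chains. Nid1 made up 82.6% to 84.0% of the nidogen transcripts in the 4 group means.

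**Figure D1:**
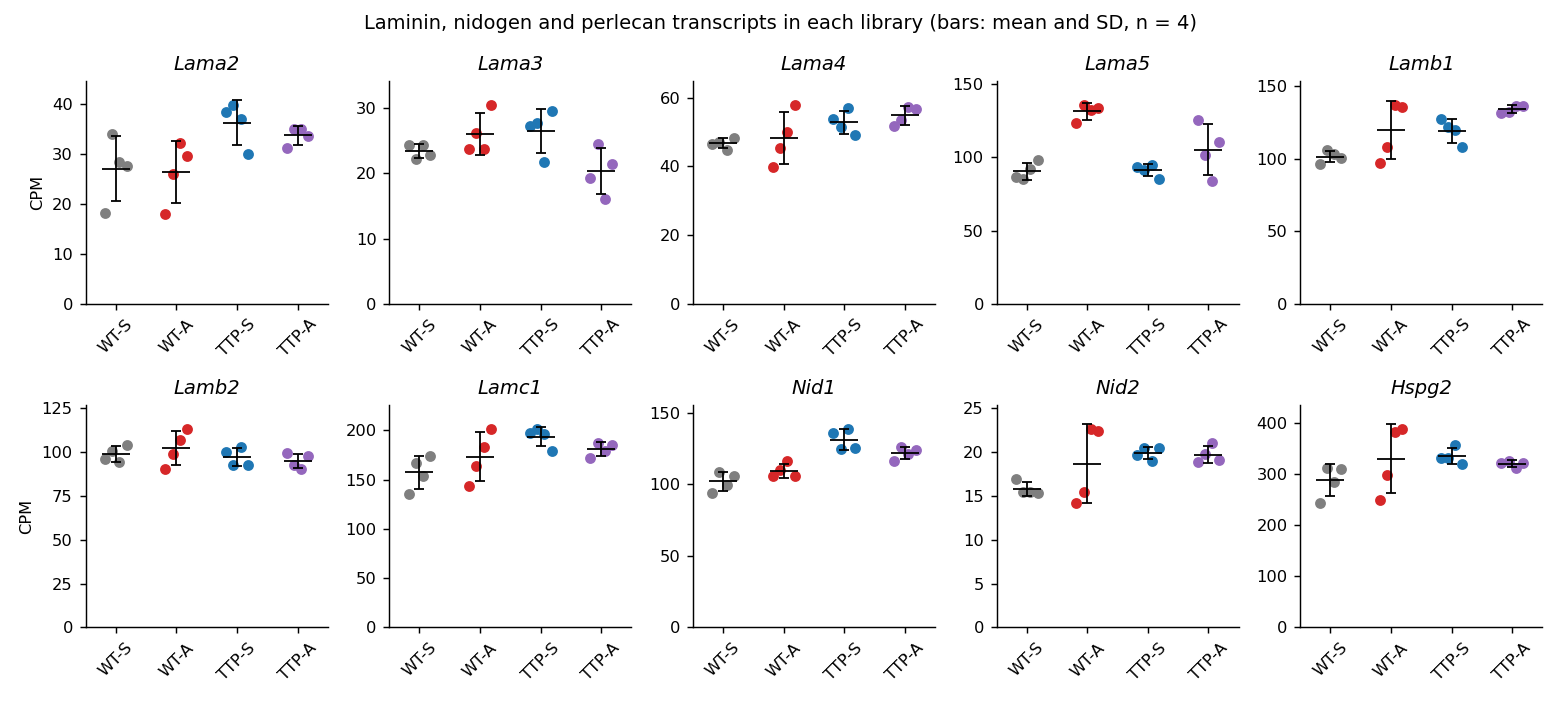
CPM of the 10 members in each library by group, with the mean and SD of 4 libraries, on axes that start at 0. Lama5 in WT-A, at 123 to 136 CPM, lies above every WT-S library, and the WT-A points of Nid2, Lamb1 and Hspg2 split into a low pair (1 and 2) and a high pair (3 and 4).

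Adrenalectomy in the wild type was accompanied by a higher level of Lama5, the alpha chain of most adult epithelial and vascular basement membranes. The other members did not pass the test, with Nid1 left out of it here because it was picked on the WT-S libraries. In WT-S libraries 1 to 4 Lama5 stood at 86.5, 85.4, 92.2 and 98.1 CPM, and in the WT-A libraries at 123, 136, 132 and 134 CPM. The lowest WT-A library lay above the highest WT-S library, a separation found for 9.2% of all tested genes. The log2 difference was 0.54 (SE 0.092, 1.45-fold), with an adjusted p of 0.00260 in edgeR's quasi-likelihood test with Benjamini-Hochberg adjustment over all genes tested. This was 1 of 9 members besides Nid1 against a background of 9.8% of all tested genes called higher and 18.8% called in either direction. At an unadjusted p under 0.05 there were 2 members, against 36.5% of all genes. The share of members called was thus near the background. The median log2 difference of the 9 members was 0.15, beside 0.0094 over all genes. It was -0.062 without WT-A 3 and WT-A 4 and 0.048 with offsets that remove each library's GC trend.

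The Lama5 call did not depend on the pair of libraries set apart by GC content. Lama5 (chr2:180176373-180225859, GRCm38) has a GC content of 59.9% in its longest transcript. WT-A 3 and WT-A 4 exceeded WT-A 1 and WT-A 2 by a log2 difference of only 0.04 for Lama5, where genes of like GC content had a median of 0.25. Without these 2 libraries the difference was 0.52 (adjusted p = 0.0113), where 4.64% of all genes were called higher, and leaving out each library in turn gave 0.51 to 0.58. With offsets that remove each library's GC trend it was 0.37 (adjusted p = 0.0107). Smooth muscle markers moved with it: all 7 had a difference above 0, 5 were called higher, and their sum was 8071 to 9779 CPM in WT-A against 6841 to 7761 in WT-S. Of the 7 corpus epithelial markers 0 had a difference above 0 and 2 were called lower, with sums of 86211 to 158771 CPM in WT-A against 128235 to 206218 in WT-S. Of the fibroblast, endothelial, mesothelial and skeletal muscle markers 3 of 7, 2 of 6, 2 of 4 and 2 of 4 were called higher, and of the enteric glia markers 1 of 5. All 6 squamous markers had a difference above 0 (median 2.81) and 0 were called, with sums of 3.69 to 200 CPM in WT-S and 45.5 to 732 CPM in WT-A. Lama5 was at 123 and 134 CPM in the WT-A libraries with the lowest squamous sums, 1 and 4. The part of these markers in the Lama5 difference was not tested.

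In the TTPΔARE mice Lama5 varied more after adrenalectomy. The TTP-S libraries held 93.5, 91.5, 95.1 and 85.3 CPM, and the TTP-A libraries 125, 101, 83.8 and 111 CPM. The groups overlapped, since TTP-A 3 lay below every TTP-S library. The log2 difference was 0.20 (adjusted p = 0.283, edgeR), with 0.11 without TTP-A 1 (adjusted p = 0.745) and 0.30 without TTP-A 3 (adjusted p = 0.0614). Against WT-A the TTP-A libraries were lower by a log2 difference of -0.32 (adjusted p = 0.0536), and the interaction, which is the response in TTPΔARE minus the response in the wild type, was -0.33 (adjusted p = 0.264). With GC offsets these values were -0.20 (adjusted p = 0.183) and -0.21 (adjusted p = 0.458). The difference between the 2 genotypes' responses therefore did not pass the test.

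As a share of all alpha chain transcripts per kilobase, Lama5 stood at 37.6% ± 1.74 in the WT-S group and 45.7% ± 3.23 in the WT-A group (SD, n = 4 libraries each). The TTP-S group had 34.1% ± 0.278 and the TTP-A group 37.6% ± 4.53. The WT-A shares were 49.3%, 47.2%, 44.4% and 41.9%, all above the highest WT-S share of 39.2%. Lama4 made up 31.4% ± 2.05 of the alpha chains in WT-A and 36.6% ± 1.61 in WT-S. With the merged length of all annotated exons Lama5 made up 49.4% in WT-S and 57.3% in WT-A, and Lama4 24.1% and 19.7%. The sizes of the shares therefore depend on the transcript model, and none was tested.

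**Figure D2:**
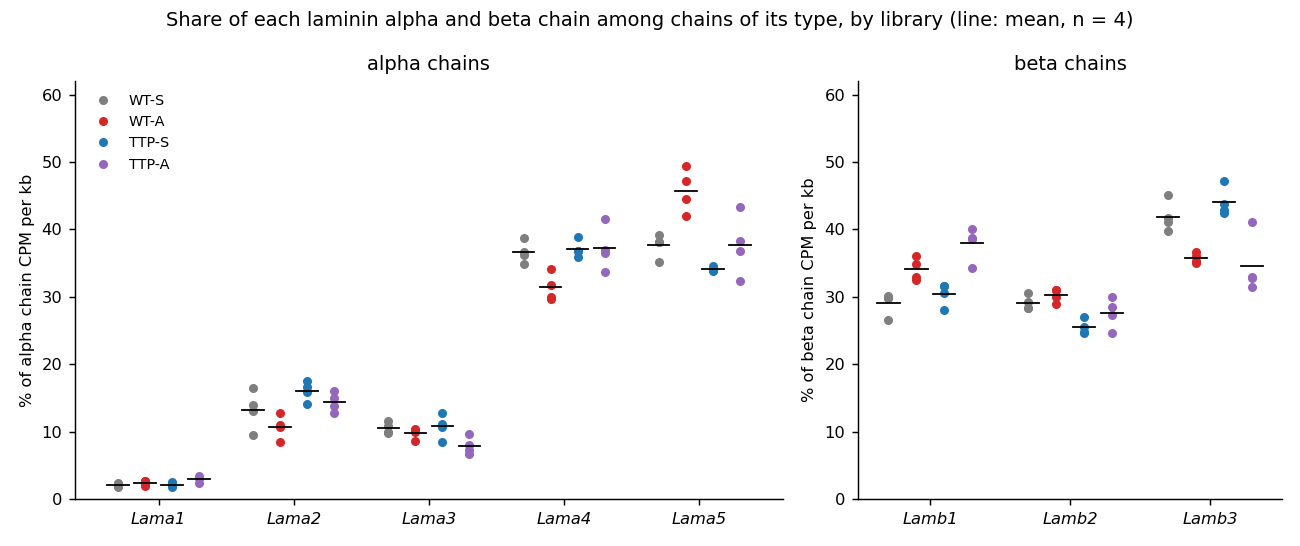
Share of each laminin alpha and beta chain among the chains of its type, in percent of CPM per kb, with a point for each library and a line at the mean of 4. Lengths are those of the longest coding transcript. The 4 WT-A points of Lama5 (41.9% to 49.3%) lie above the 4 WT-S points, and the TTP-A points of Lamb3 (31.5% to 41.1%) lie below the TTP-S points (42.4% to 47.2%), as those of WT-A (35.0% to 36.6%) lie below the WT-S points (39.7% to 45.1%).

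Lama3 encodes the alpha chain of epithelial anchoring complexes and assembles with the product of Lamb3. Lama3 was at 24.4, 22.2, 24.3 and 22.9 CPM in WT-S and at 23.7, 26.3, 23.8 and 30.5 CPM in WT-A. In TTP-S it was at 27.2, 27.7, 21.7 and 29.6 CPM and in TTP-A at 19.3, 24.5, 16.1 and 21.5 CPM. TTP-A held the lowest libraries, but TTP-A 2 overlapped both TTP-S and WT-A. The log2 difference of TTP-A from TTP-S was -0.39 (SE 0.12, adjusted p = 0.0981, edgeR), and from WT-A -0.36 (adjusted p = 0.0839), or -0.30 without WT-A 3 and WT-A 4 (adjusted p = 0.240). Both passed with the DESeq2 Wald test, at adjusted p of 0.0441 and 0.0475, the first also without TTP-A 2 (adjusted p = 0.0267) and the second without WT-A 1 (adjusted p = 0.0390).

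The Lamb3 partner chain of Lama3 fell between TTP-S and TTP-A. Lamb3 was at 145, 142, 139 and 153 CPM in TTP-S and at 90.5, 134, 94.0 and 97.4 CPM in TTP-A. It fell by 0.48 on the log2 scale (adjusted p = 0.0369, edgeR). Over the 16 libraries it was the 1 call in this comparison among the 3 other laminin chains given here, where 1.35% of all tested genes were called lower. Leaving out each library in turn lost the Lamb3 call 8 of 16 times, with adjusted p up to 0.152. The libraries behind these losses were WT-S 3, TTP-A 1, 3 and 4 and each TTP-S library. In WT-A against WT-S the log2 difference of Lamb3 was -0.24 (adjusted p = 0.142), -0.37 without WT-A 3 and WT-A 4 (adjusted p = 0.0914) and -0.37 with GC offsets (adjusted p = 0.0230), and its interaction was -0.24 (adjusted p = 0.464). In TTP-A against TTP-S, 0 of 7 corpus epithelial markers had a difference above 0 and 1 was called lower, and 0 of 6 squamous markers had a difference above 0 (median -0.55, 0 called). The part of these markers in the Lamb3 difference was not tested.

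Lamb3 was at 92.4, 99.2, 112 and 116 CPM in WT-A, and the TTP-A libraries lay on both sides of them (log2 difference -0.01, adjusted p = 0.951). Lama1 and Lamc3 were rare, at 0.568 CPM per kb for Lama1 and 0.755 for Lamc3. The log2 difference of Lamc3 in WT-A against WT-S was -0.48 (adjusted p = 0.161), and -0.91 without WT-A 3 and WT-A 4 (adjusted p = 0.0429). Lama1, an alpha chain best known from embryonic membranes, was at 3.79 to 4.71 CPM in WT-S and 4.08 to 7.17 in WT-A (log2 difference 0.51, adjusted p = 0.0412). Without WT-A 3 and WT-A 4 the difference was 0.35 (adjusted p = 0.248). The call was also lost on leaving out WT-S 1, 2 or 4, WT-A 2, 3 or 4, or TTP-A 1, 3 or 4, with adjusted p up to 0.109. It was lost with GC offsets (adjusted p = 0.0809) and on fitting only the 2 groups (adjusted p = 0.118) as well. In TTP-A the Lama1 libraries (5.31 to 7.55 CPM) lay above those of TTP-S (4.03 to 5.24 CPM), as for 6.94% of all genes. That log2 difference was 0.56 (adjusted p = 0.0782, edgeR), and it passed with the DESeq2 Wald test (adjusted p = 0.0319), on fitting only the 2 groups (0.0343), without WT-A 3 and WT-A 4 (0.0467) and with GC offsets (0.0456).

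Lama4 encodes the alpha chain of vascular and mesenchymal laminins. It was at 46.6, 47.2, 44.7 and 48.1 CPM in WT-S and at 39.9, 45.3, 50.1 and 57.9 CPM in WT-A. The WT-A libraries lay on both sides of WT-S. TTP-S held 53.8, 51.4, 56.9 and 49.0 CPM and TTP-A 51.7, 53.3, 57.2 and 56.8 CPM. Those 8 TTPΔARE values all exceeded the WT-S values. Of all tested genes 3.5% had each TTP-S library above each WT-S library. Nid1 was picked on those groups, so nothing is read from this separation. Lama2, the alpha chain of muscle and nerve laminins, ranged from 17.9 to 33.9 CPM in the WT libraries and from 29.8 to 39.7 CPM in the TTPΔARE libraries. Its log2 difference between TTP-A and WT-A was 0.35 (adjusted p = 0.202, edgeR), and 0.62 without WT-A 3 and WT-A 4 (adjusted p = 0.103).

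Among the beta chains, Lamb1 and Lamb2 differed in how much they varied. Lamb1, the widespread beta chain, was at 96.4, 106, 103 and 100.4 CPM in WT-S and at 97.3, 108, 137 and 136 CPM in WT-A. Lamb1 in TTP-S was at 127, 122, 120 and 108 CPM and in TTP-A at 132, 133, 136 and 136 CPM. Each TTP-A library lay above each TTP-S library, a separation that 6.94% of all tested genes showed in that direction. The log2 difference was 0.17 (adjusted p = 0.388, edgeR). Lamb2, the beta chain of neuromuscular and vascular smooth muscle membranes, stayed between 90.3 and 113 CPM in all 16 libraries, and each pair of groups overlapped.

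Lamc1, on chr1:153218922-153332786, was at 135 to 174 CPM in the WT-S libraries and 144 to 202 CPM in the WT-A libraries. The TTP-S libraries held 179 to 201 CPM and the TTP-A libraries 172 to 188 CPM. Its log2 differences in the tested comparisons were 0.14 for WT-A against WT-S, -0.10 for TTP-A against TTP-S and 0.06 for TTP-A against WT-A, with adjusted p of 0.285, 0.711 and 0.677. Hspg2, on chr4:137468769-137570630, was the member with the most reads per library. It was at 244, 312, 285 and 310 CPM in WT-S and at 250, 298, 382 and 389 CPM in WT-A. The TTP-S libraries held 332, 332, 358 and 320 CPM and the TTP-A libraries 323, 326, 311 and 322 CPM. The 4 TTP-A values differed from each other by less than those of any other group, with a coefficient of variation of 1.96% against 4.74% to 20.5%.

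The nidogens differed in level and in their spread within WT-A. Nid1, on chr13:13437551-13512269, was at 93.8, 109, 99.8 and 106 CPM in WT-S and at 106, 110, 116 and 106 CPM in WT-A. In TTP-S it stood at 136, 124, 139 and 125 CPM and in TTP-A at 117, 126, 121 and 124 CPM. All 8 TTPΔARE libraries lay above all 8 WT libraries, but TTP-S and WT-S are the groups on which Nid1 was picked. In the other groups the lowest TTP-A library was at 116.6 CPM and the highest WT-A library at 116.1 CPM. Between TTP-S and WT-S, the contrast on which Nid1 was picked, the log2 difference was 0.36 (1.28-fold) and is a description only. Nid2, on chr14:19751265-19811787, was at 16.96, 15.4, 15.4 and 15.3 CPM in WT-S and at 14.1, 15.4, 22.7 and 22.3 CPM in WT-A. TTP-S held 19.6, 20.5, 19.0 and 20.5 CPM and TTP-A 18.8, 19.8, 21.0 and 19.0 CPM. The TTPΔARE values lay above WT-S and below WT-A 3 and 4. As for Lama4, 3.5% of all tested genes had TTP-S above WT-S without overlap, and nothing is read from this.

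The libraries of TTP-A and WT-A took no part in picking Nid1 and give a separate genotype comparison for it. The mean log2 CPM of Nid1 was 6.93 in TTP-A and 6.77 in WT-A. In the fit across all genes the difference was 0.16 (SE 0.058, 1.11-fold), with an adjusted p of 0.105 (edgeR), so Nid1 did not pass the threshold. An exact two-sided permutation test of the same libraries gave p = 0.0286, which is the smallest p that 4 against 4 allows. Such separation, with each TTP-A library above each WT-A library, was found for 5.99% of all tested genes. Without WT-A 3 and WT-A 4 the difference was 0.18 (adjusted p = 0.150).

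The differences of Nid1 after adrenalectomy use the WT-S and TTP-S libraries on which it was picked and are given without a test, and Nid1 is left out of the counts of members in those comparisons. The log2 difference was 0.10 in the wild type and -0.10 in TTPΔARE, and the interaction was -0.20. Nid1 was picked for a low WT-S and a high TTP-S level, and both levels enter these values.

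Between TTP-S and WT-S, 9 of the 10 members had a log2 difference above 0 (49.8% of all genes), with a median of 0.23 beside -0.00052 over all genes. Besides Nid1 the differences were 0.42 for Lama2, 0.33 for Nid2, 0.30 for Lamc1, 0.23 for Lamb1, 0.22 for Hspg2, 0.18 for Lama3 and 0.18 for Lama4. Lama5 at 0.01 and Lamb2 at -0.03 were nearest to no difference. The TTP-S and WT-S libraries did not overlap for 6 members, which were Lamc1, Lama4, Lamb1, Nid1, Nid2 and Hspg2. Of all tested genes 3.5% were separated in that direction, and 0.0325% were called. Since Nid1 was picked on these libraries and the list was drawn up with it, nothing is read from these counts.

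The summed fibroblast markers were also higher in each TTP-S library than in each WT-S library. Their 7 genes (Pdgfra, Dcn, Lum, Dpt, Col1a1, Col1a2 and Col3a1) were detected in every library and summed to 1325 to 1499 CPM in WT-S, 1697 to 2121 in TTP-S and 1902 to 2114 in TTP-A. Within WT-A the sums were 1482, 1872, 2333 and 2225 CPM for libraries 1 to 4. Between TTP-S and WT-S all 7 markers had a log2 difference above 0, and 0 were called by edgeR, beside 0.0325% of all genes. The mean log2 CPM of the 10 members ran from 5.96 to 6.13 in WT-S and from 6.23 to 6.34 in TTP-S. In WT-A it was 5.98, 6.17, 6.36 and 6.41, so it was lowest in WT-A 1, as the fibroblast sum was. In biopsies of this kind, fewer cells of a type and less RNA per cell cannot be told apart, and the part of fibroblasts in the members' levels was not tested. Endothelial markers, whose cells also make laminins, summed to 232 to 257 CPM in WT-S and 239 to 263 CPM in TTP-S. In WT-A they summed to 227 to 296 CPM and in TTP-A to 270 to 291 CPM. Between TTP-S and WT-S, 6 of 6 squamous, 4 of 4 mesothelial and 5 of 5 adipocyte markers also had a difference above 0. Of the endothelial, smooth muscle and skeletal muscle markers 4 of 6, 4 of 7 and 1 of 4 did.

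**Figure D3:**
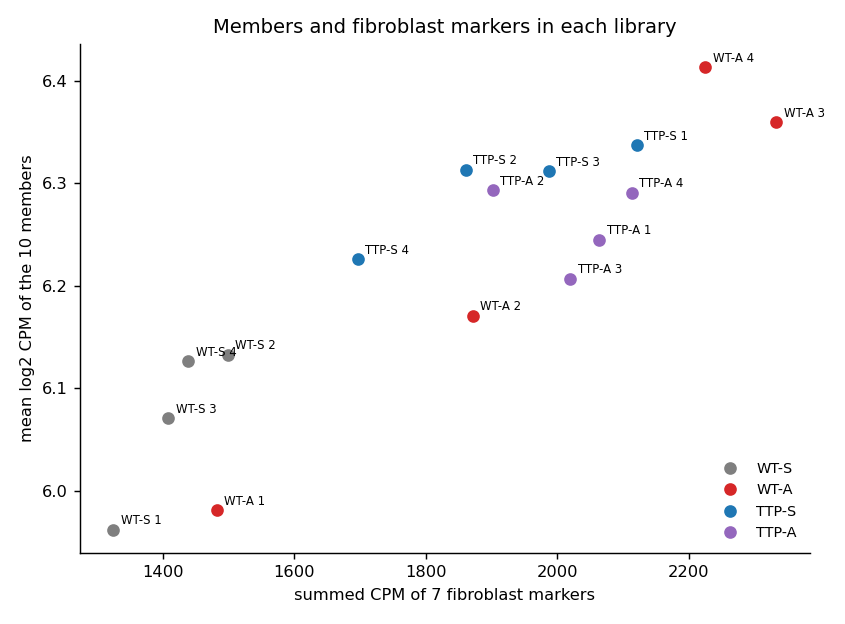
Mean log2 CPM of the 10 members against the summed CPM of 7 fibroblast markers, with 1 point for each of the 16 libraries, colored by group. WT-S 1 and WT-A 1 have the lowest member means (5.96 and 5.98), and WT-A 3 and WT-A 4 have the highest values on both axes.

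The genes most like the members were found by ranking 11146 genes with a mean of at least 5 CPM by Pearson's r of log2 CPM over the 16 libraries, given as a description. The libraries share group structure and scaling. For the mean of the 10 members the top genes were the matrix protease gene Mmp2 (r = 0.96), the fibrillar collagen genes Col5a1 and Col1a2 (both 0.91), the procollagen protease gene Adamts2 (0.91) and Fndc1 (0.91). Col1a2 is also among the fibroblast markers. For Nid1 they were Itih5 (0.90), Sncaip (0.86), the microfibril gene Mfap4 (0.84), Antxr1 (0.83) and Zfp36 (0.81). After group means were removed, the r between Nid1 and Zfp36 was -0.24, whereas that between Nid1 and Itih5 was 0.80. Against Nid1 the other members ranged from -0.15 (Lama5) to 0.76 (Lama2 and Lamc1).

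Members differed in how strongly they split within WT-A. The pair WT-A 3 and 4 exceeded the pair WT-A 1 and 2 by a log2 difference of 0.60 for Nid2, 0.52 for Lama2, 0.50 for Hspg2, 0.41 for Lamb1, 0.34 for Lama4 and 0.32 for Lamc1. These 6 splits were larger than the upper quartile of all genes of like GC content. Lama2 has a transcript GC content of 47.7%, where all genes had a median split of -0.09. For Nid1 the split was 0.04, for Lama3 0.11 and for Lamb2 0.22. The log2 differences of WT-A from WT-S moved with it. For Nid2 the difference was 0.24 over 16 libraries and -0.09 without WT-A 3 and WT-A 4, for Lamb1 0.24 and 0.02, and for Hspg2 0.20 and -0.07. None of the 3 passed the test in either fit.

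**Figure D4:**
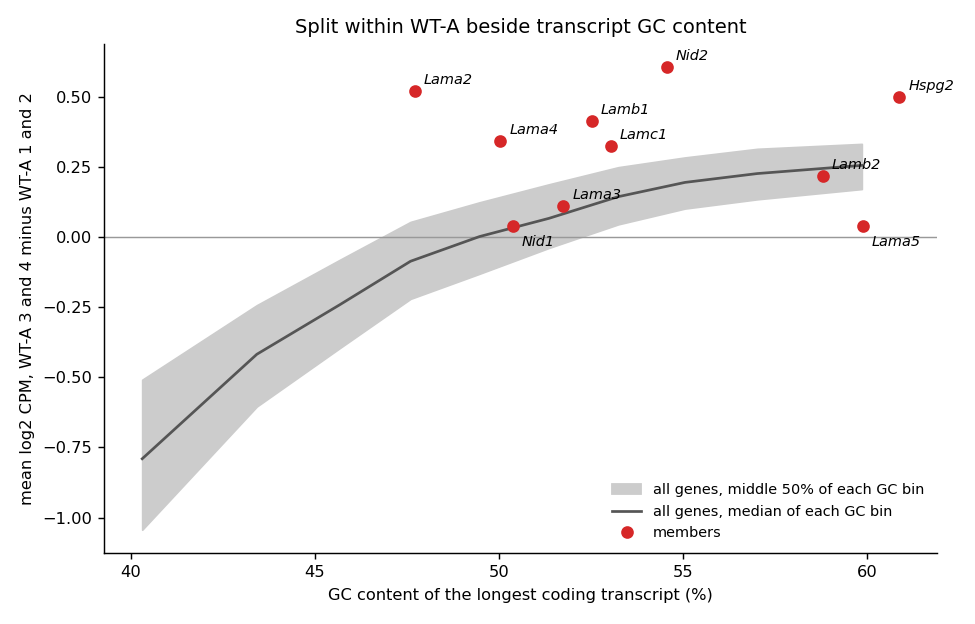
Difference in mean log2 CPM between WT-A 3 and 4 and WT-A 1 and 2 against transcript GC content, for the 10 members (points) and for all genes in 10 GC bins (line, median; band, quartiles). Nid2, Lama2, Hspg2, Lamb1, Lama4 and Lamc1 lie above the band, and Lama5 (0.04) lies below it.

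The comparison of TTP-A with WT-A depended on these 2 libraries. Over all 16 libraries 0 of the 10 members were called by edgeR, against 5.17% of all tested genes. At an unadjusted p under 0.05 there were 3 (Nid1, Lama3 and Lama5), against 27.5%, and the DESeq2 Wald test called 2 (Lama3 and Lama5), against 10.6%. Without WT-A 3 and WT-A 4, edgeR called 3 members, all higher in TTP-A: Lama4 (0.36, adjusted p = 0.0209), Lamb1 (0.39, adjusted p = 0.0117) and Nid2 (0.41, adjusted p = 0.0126). In that fit 1.33% of all genes were called higher. Lama4, Lamb1 and Nid2 had log2 differences of 0.18, 0.17 and 0.08 over 16 libraries, with adjusted p of 0.188, 0.240 and 0.698. Leaving out single libraries gave 2 calls without WT-A 1 (Lama3 and Lama5, with 20.7% of all genes called), 1 without WT-A 4 (Lama4, 3.26%) and 1 without TTP-A 1 (Lama5, 2.64%). In the 14 libraries WT-A is left with 2 libraries, and fibroblast marker sums were 1482 and 1872 CPM in these, below the 1902 to 2114 CPM of TTP-A. The part of the fibroblast markers in these 3 calls was not tested. Over 16 libraries 6 of 7 fibroblast and 4 of 6 endothelial markers had a difference above 0 in TTP-A against WT-A. Of each list 1 was called higher, where 5.17% of all tested genes were called in either direction. Of the 7 smooth muscle markers 0 had a difference above 0 in TTP-A against WT-A over 16 libraries and 4 were called lower, with sums of 6501 to 7786 CPM in TTP-A. The 6 squamous markers also had 0 above 0 (median -2.14, 0 called), with sums of 4.802 to 192 CPM in TTP-A. The part of these lists in the members' differences was not tested.

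The response of the members to adrenalectomy in TTPΔARE and its difference from the wild type gave no call. For TTP-A against TTP-S, 0 of the 9 members besides Nid1 were called by edgeR (background 2.9%), 2 had an unadjusted p under 0.05 (15.9%), and the DESeq2 Wald test called 1, Lama3 (5.62%). The median log2 difference of the 9 members was -0.031. For the interaction, 0 of the 9 were called by edgeR (background 0.0585%) and 0 by DESeq2 (1.74%), and 2 (Lama3 and Lama5) had an unadjusted p under 0.05 (15.2%). The interaction contains, with a minus sign, the TTP-S against WT-S difference on which Nid1 was picked, so nothing is read from the signs of its 10 values. The lowest was that of Lama3 (-0.54, adjusted p = 0.184). For WT-A against WT-S, leaving out WT-A 1 raised the number of members called from 1 to 4 (Lama5, Lamb1, Nid2 and Hspg2), while the share of all genes called went from 18.8% to 32.2%. Leaving out WT-A 2 raised it to 2 (Lama5 and Lamb1), with 23% of all genes called.

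**Figure D5:**
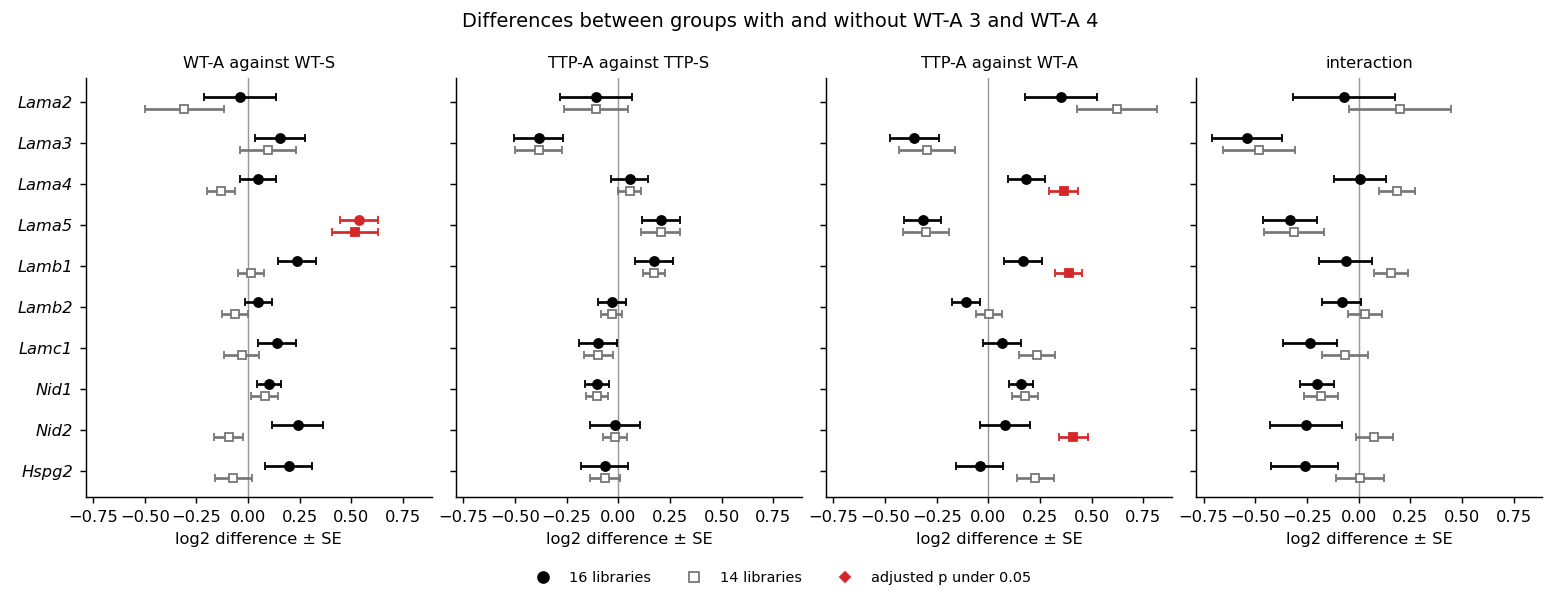
Log2 difference ± SE of each member in 4 comparisons from edgeR, over 16 libraries (circles) and over the 14 libraries without WT-A 3 and WT-A 4 (squares), with adjusted p under 0.05 in red. Lama5 is red in both fits for WT-A against WT-S, and Lama4, Lamb1 and Nid2 are red for TTP-A against WT-A in the 14 libraries.

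Of 18 partners of laminin (collagens IV, XV and XVIII, agrin and matrix proteins that bind or crosslink them), 8 rose and 2 fell in WT-A against WT-S, beside 9.8% of all genes called higher and 8.99% called lower. The crosslinking enzyme gene Loxl2 went from 31.7 ± 1.44 to 42.9 ± 2.49 CPM (SD, n = 4 each), a log2 difference of 0.44 with an adjusted p of 0.000603 by edgeR. Sparc, which encodes a collagen-binding protein, rose by 0.74 (adjusted p = 0.00154), Col15a1 by 0.59 (adjusted p = 0.00208) and Col4a1 by 0.53 (adjusted p = 0.00208). Without WT-A 3 and WT-A 4 the 4 differences were 0.40, 0.49, 0.45 and 0.32, and each still passed. The genes that fell in WT-A were Col4a3 and Col4a4, which encode chains of a specialised collagen IV network. Col4a4 passed narrowly (adjusted p = 0.0465, edgeR), and with no filter on low counts Col4a3 alone was called lower. On leaving out each library in turn, the count of 2 called lower was kept in 2 of 16 runs and was otherwise 1. With WT-A 3 and WT-A 4 left out, 6 partners were called higher and 3 lower, beside 4.64% and 5.75% of all genes. On fitting only the WT-A and WT-S libraries the counts were 5 and 0, beside 2.65% and 1.84%. Of the 8 collagen genes 3 rose, 2 fell and 3 did not pass. The smooth muscle, fibroblast and endothelial markers called higher in this comparison (5 of 7, 3 of 7 and 2 of 6) and the corpus epithelial markers called lower (2 of 7) moved with these genes, and their part was not tested.

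Of 8 laminin receptor genes 3 rose and 0 fell in WT-A against WT-S, beside the same 9.8% and 8.99% of all genes: the integrin genes Itga7 (0.46, adjusted p = 0.00438), Itgb4 (0.39, adjusted p = 0.00936) and Itga6 (0.24, adjusted p = 0.0286). Itgb4 did not pass without WT-A 3 and WT-A 4 (adjusted p = 0.0760), and Itga6 did not pass without WT-S 2 (adjusted p = 0.0900). On fitting only the 2 groups Itga7 alone of the receptors was called, beside 2.65% of all genes called higher. The adjusted p there was 0.0528 for Itgb4 and 0.144 for Itga6 (edgeR). Of 12 tested protease and inhibitor genes 5 rose and 2 fell. Timp1, a metalloproteinase inhibitor, went from 1.64 ± 0.447 to 6.27 ± 1.64 CPM (log2 difference 1.93, adjusted p = 0.00188), and Mmp14, a membrane-bound metalloproteinase, rose by 0.72 (adjusted p = 0.00121). Bmp1, which cleaves procollagens and some laminin chains, rose by 0.45 (adjusted p = 0.00471), and Adamts1 fell by 0.66 on the log2 scale (adjusted p = 0.0117). In the 14 libraries without WT-A 3 and WT-A 4 the log2 differences were 0.41 for Itga7, 1.97 for Timp1, 0.55 for Mmp14, 0.25 for Bmp1 and -0.88 for Adamts1, and each still passed. In that fit 5 proteases and inhibitors were called higher and 1 lower, beside 4.64% and 5.75% of all genes. On fitting only the 2 groups the counts were 3 and 0, beside 2.65% and 1.84% of all genes. The adjusted p was then 0.0530 for Bmp1 and 0.0592 for Adamts1 (edgeR). In the same comparison 5 of 7 smooth muscle markers were called higher, 2 of 7 corpus epithelial markers were called lower and 6 of 6 squamous markers had a difference above 0, and their part in these genes was not tested.

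In the other tested comparisons, which leave out TTP-S against WT-S, these lists gave 1 call by edgeR. It was in TTP-A against WT-A, where 5.17% of all tested genes were called. Timp3, an inhibitor held in the matrix, was higher in TTP-A than in WT-A by 0.40 (adjusted p = 0.0178), but not past the threshold without WT-A 3 and WT-A 4 (0.25, adjusted p = 0.0701), without WT-A 3 alone (adjusted p = 0.0624) or on fitting only the 2 groups (adjusted p = 0.110). Of the 18 partners 0 were called in TTP-A against TTP-S, TTP-A against WT-A or the interaction. At an unadjusted p under 0.05 there were 5, 5 and 6, beside 15.9%, 27.5% and 15.2% of all genes, and the DESeq2 Wald test called 3, 2 and 5, beside 5.62%, 10.6% and 1.74%. For the 8 receptor genes the counts by edgeR were 0 in each, with 3, 4 and 2 at an unadjusted p under 0.05 and 1, 1 and 0 by DESeq2. The 12 proteases and inhibitors had 0 calls by edgeR in TTP-A against TTP-S and in the interaction, with 5 and 2 at an unadjusted p under 0.05 and 2 and 1 by DESeq2. On fitting only the TTP-A and TTP-S libraries, edgeR called 3 partners, 0 receptors and 3 proteases or inhibitors higher, beside 4.15% of all genes, and 2, 1 and 1 lower, beside 3.89%.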

How the data were processed

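RNA of 16 stomach biopsies was analysed, 4 libraries in each of 4 groups taken from the sample titles. The authors deposited 1 table of read counts per gene symbol (24964 symbols, 17453930 to 25849472 counts per library), named per the file headers after featureCounts. STAR 2.7.0f, featureCounts, Subread 1.6.4, DESeq2 and the build mm10 are named per the submitters' processing notes. Their settings, the annotation and the strandedness are not given in the sources used here, so reads of overlapping genes cannot be told apart.

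The deposited counts entered edgeR 4.0.16 (R 4.3.3) unchanged, with filterByExpr, TMM scaling and quasi-likelihood fits of the 4 group means to all 16 libraries. Benjamini-Hochberg adjustment covered the 15385 genes tested, and an adjusted p below 0.05 is a call. SEs are those implied by the log2 difference and its test statistic. CPM are counts relative to TMM-scaled totals. Log2 CPM for permutation, splits and likeness used a prior count of 2. For Nid1, an exact two-sided permutation test compared TTP-A with WT-A.

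Levels per kilobase and GC content used the longest coding transcript of GENCODE M21, and 15211 tested genes (98.9%) had a GC value. The chi-square between libraries of a group was 4.69 to 89.5 times its degrees of freedom, more than counting error alone gives. Each library was treated as its own replicate, though this spread does not show that they came from separate animals. The alternatives were DESeq2 1.42.0 size factors and Wald test, 2 other filters, fits restricted to 2 groups, a replicate block, the 14 libraries without WT-A 3 and WT-A 4, GC offsets (loess, span 0.5), and leaving out each library in turn. The merged exon length was added after seeing the data. The procedures were tested on simulated data.

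The members and lists were chosen with earlier results of these data known. Named were all 10 members, the other laminin chains (1 of them is not reported here), and of each further list the called genes, up to 4 with the smallest adjusted p per comparison. Col4a3 and Col4a4 were named after their values were seen. Of the lists of markers, the summed levels of those for pericytes (353 to 641 CPM summed), enteric glia (14.0 to 28.3), adipocytes (32.3 to 80.3), skeletal muscle (13.5 to 32.3), exocrine pancreas (10.2 to 22.2) and mesothelium (0.973 to 5.20) are given here only.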

Additional observations from a re-analysis of the deposited data

Results flagged for a closer look

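In each of the 10 members and 4 groups, the library farthest from the others was compared with the spread of its group. Of these 40 sets of 4 libraries 1 was past Dixon's 95% limit, and chance alone passes about 1 in 20. It was Nid2 in WT-S, where WT-S 1 was highest at 16.96 CPM. The nearest library was at 15.4 CPM, and the gap was 0.92 of the range of the group. The spread of this group was no larger than counting error alone gives (coefficient of variation 5.01% against 5.53%).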

How the results depend on the processing

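The members called in WT-A against WT-S numbered 1 (Lama5) under every alternative that kept all libraries and without WT-A 3 and WT-A 4, and 1 to 4 on leaving out single libraries. The count of 0 for TTP-A against TTP-S became 1 with the DESeq2 Wald test and was 0 to 1 on leaving out single libraries. For TTP-A against WT-A the count of 0 became 2 with DESeq2 and 3 without WT-A 3 and WT-A 4, and was 0 to 2 on leaving out single libraries. The interaction had 0 calls throughout. The permuted Nid1 difference was 0.18 without WT-A 3 and WT-A 4 (p = 0.133, exact permutation, the smallest possible there) and 0.14 to 0.19 on leaving out single libraries (p = 0.0571, exact, likewise the smallest possible).

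Several small differences changed sign, and the cause was not tested. Without WT-A 3 and WT-A 4, WT-A against WT-S gave -0.13 for Lama4, -0.0621 for Lamb2, -0.0316 for Lamc1, -0.0929 for Nid2 and -0.0725 for Hspg2. There, TTP-A against WT-A gave 0.0029 for Lamb2, 0.23 for Hspg2 and 0.12 for Lamb3, and the interaction gave 0.20 for Lama2, 0.16 for Lamb1, 0.0307 for Lamb2, 0.0765 for Nid2 and 0.0066 for Hspg2. With GC offsets, WT-A against WT-S gave 0.0351 for Lama2, -0.12 for Lamb2 and -0.0078 for Hspg2. TTP-A against WT-A then gave 0.0173 for Lamb2, 0.11 for Hspg2 and 0.10 for Lamb3, and the interaction gave 0.0124 for Lamb1 and 0.0515 for Lamb2. On leaving out single libraries, WT-A against WT-S ran from -0.19 to 0.11 for Lama2, from -0.0497 to 0.13 for Lama4 and from -0.0017 to 0.11 for Lamb2, and TTP-A against TTP-S from -0.0488 to 0.0036 for Nid2. TTP-A against WT-A ran from -0.0162 to 0.15 for Lamc1, from -0.0325 to 0.19 for Nid2, from -0.15 to 0.0483 for Hspg2 and from -0.16 to 0.0487 for Lamb3. The interaction ran from -0.22 to 0.0785 for Lama2, from -0.0752 to 0.10 for Lama4 and from -0.15 to 0.0096 for Lamb1.

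The replicate numbers did not pair the libraries. Of 24 pairs with the same number 5 had deviations correlated over 0.1 (r from -0.43 to 0.44, median -0.06), and 2 of 16 libraries correlated best with their own number. With the replicate block 2853, 427, 624 and 4 genes were called in WT-A against WT-S, TTP-A against TTP-S, TTP-A against WT-A and the interaction, against 2891, 446, 796 and 9 without it. The block changed no call of a member, whose counts were 1, 0, 0 and 0, and called Col4a3 and Ctss among the further lists in TTP-A against TTP-S. Fitting only the groups compared called 675, 1195 and 1 genes in WT-A against WT-S, TTP-A against TTP-S and TTP-A against WT-A, and 60 in place of 5 in TTP-S against WT-S. The members had at least 299 counts per library, and in 4 of 40 member groups (Lama4 and Nid2 in WT-S, Nid2 in TTP-S, Lamb1 in TTP-A) the spread between libraries was no larger than counting error alone gives.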
